A study of Mus musculus with 10 samples.

Results

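The genes described here are those by which cortical inhibitory interneurons are usually recognised. They are the neuropeptide genes Npy (neuropeptide Y), Sst (somatostatin), Vip (vasoactive intestinal peptide), Cck (cholecystokinin), Crh (corticotropin-releasing hormone) and Cort (cortistatin), the calcium-binding protein gene Pvalb (parvalbumin), and the genes by which GABA is made and packed, Gad1 and Gad2 (glutamate decarboxylases) and Slc32a1 (the vesicular GABA transporter). They were chosen by symbol, and 10 of 10 were found among the 12575 genes of the deposited table. RNA was sequenced from bulk cerebral cortex of C57BL/6 mice that all carried floxed Bmal1 alleles (gene symbol Arntl) and all received tamoxifen. BMAL1 aKO mice also carried CreERT2 under the Aldh1l1 promoter, which is active in astrocytes, and Cre- mice were their littermates without it, with 5 libraries in each group by the labels. The age is 4 months in the labels, while the study's text gives a later age and fewer BMAL1 aKO animals than the labels without naming the animal left out, so each library was also left out in turn.

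Interneurons release GABA onto other neurons and fall into classes that are told apart by what they make besides GABA. Parvalbumin cells fire fast and contact cell bodies, somatostatin cells (many of which also make neuropeptide Y, and some cortistatin) contact dendrites, and cells with vasoactive intestinal peptide mostly inhibit other interneurons. Cholecystokinin marks a further class of basket cells, but its gene is also used by cortical pyramidal cells. The peptides are cut from longer precursors, stored in dense-core vesicles and released on strong firing. The enzyme from Gad1 supplies most GABA, that from Gad2 works mainly at terminals, and the product of Slc32a1 loads GABA into synaptic vesicles. All of these are neuronal genes, while the deletion was driven in astrocytes. In bulk tissue, fewer cells of a type and less RNA per cell cannot be told apart.

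The libraries held 21844770 to 48295715 reads. The smallest number of reads behind a value of these genes was 148 (for Cort), so counting error was small beside the spread between mice. Arntl was at 34.2 ± 2.25 CPM (reads of a gene as a share of all reads, scaled so that each library has the same total; SD, n = 5) in Cre- and at 34.5 ± 2.93 CPM in BMAL1 aKO libraries (log2 fold change 0.02, adjusted p = 0.932, limma), which checks no label, since the whole gene was counted in tissue where other cells keep it. Fabp7, a fatty acid binding protein gene of astrocytes, was at 14.4 ± 3.98 and 164.6 ± 56.6 CPM, with no overlap of the groups. Cre- replicate 3 stood apart in several measures: it had the highest summed level of 11 striatal marker genes (1830 CPM, against 384.9 to 942.6 CPM elsewhere) and the lowest sample quality weight (0.181, against 0.454 to 7.19). The weight of 7.19 belonged to Cre- replicate 1, and all others were at 1.79 or lower, so weighted fits leaned on that library. Means and SDs count each library equally. The median standard error of a log2 fold change over all genes was 0.098 with weights and 0.142 without. Replicates of a group differed by 12.9 to 447.4 times sampling noise (chi-square per degree of freedom), so no library was counted as a copy of another. Xist, the transcript of the inactive X chromosome in females, was at 986 to 1050 CPM in 2 of the Cre- libraries, at 989 to 1090 CPM in 2 of the BMAL1 aKO libraries and at 1.42 CPM or lower in the rest.

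The promoters of Npy, Sst and Cck are shown because these peptide genes had the highest levels per length, and Npy and Cck the smallest p-values among the 10 genes. Each window runs from 250 bases before the annotated start to 50 bases after it and is taken from RefSeq (GRCm38.p6), 5′ to 3′ on the strand of the gene, with matches to the motifs below in capitals. The Npy window is chr6:49822460-49822759 on the plus strand, the Sst window chr16:23890795-23891094 on the minus strand, and the Cck window chr9:121495645-121495944 on the minus strand.
Npy: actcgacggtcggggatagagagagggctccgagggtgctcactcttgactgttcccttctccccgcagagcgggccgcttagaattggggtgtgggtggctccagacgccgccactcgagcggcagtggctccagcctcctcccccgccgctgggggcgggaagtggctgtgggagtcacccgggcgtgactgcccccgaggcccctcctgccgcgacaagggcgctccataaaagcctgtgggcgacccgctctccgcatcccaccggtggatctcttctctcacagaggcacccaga
Sst: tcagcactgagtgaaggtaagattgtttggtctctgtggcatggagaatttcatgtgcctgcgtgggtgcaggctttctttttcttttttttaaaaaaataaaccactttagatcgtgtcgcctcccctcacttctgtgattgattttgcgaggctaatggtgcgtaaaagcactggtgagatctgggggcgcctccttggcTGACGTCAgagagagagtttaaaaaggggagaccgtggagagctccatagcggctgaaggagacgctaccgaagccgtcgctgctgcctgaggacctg
Cck: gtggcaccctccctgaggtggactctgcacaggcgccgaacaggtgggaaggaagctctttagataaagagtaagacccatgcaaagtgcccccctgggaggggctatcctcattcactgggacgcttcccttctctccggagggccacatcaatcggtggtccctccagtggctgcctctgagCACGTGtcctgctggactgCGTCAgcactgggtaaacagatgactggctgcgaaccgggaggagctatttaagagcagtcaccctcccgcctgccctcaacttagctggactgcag
The letters CACGTG (the canonical E-box, which the CLOCK and BMAL1 pair can bind), TGACGTCA (the full cyclic AMP response element) and TATAAA were searched on both strands, and so was TGACG, a shorter form contained in TGACGTCA. Promoter windows were found for 9 of the 10 genes, all but Crh. CACGTG was found in 1 of the 9, Cck, from 66 bases before the start, and 7.15% of 32851 mouse promoter windows of this length hold it. TGACGTCA was found in 1 of the 9, Sst, from 48 bases before the start, against 1.79% of all windows. TGACG was found in 5 of the 9 (20.8% of all windows) and TATAAA in 2, Vip and Gad1 (13.6% of all windows). The Npy window held none of the 4 motifs. These matches describe letters, and no binding was measured here.

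Levels between genes were compared per kb of summed exon length. This length takes all annotated exons of a gene, with overlaps counted once. It can exceed the length of any single transcript, so levels per kb can be understated for genes with several transcripts. In Cre- cortex Sst was highest at 358.2 ± 39.1 CPM per kb (SD, n = 5), above Npy at 175.6 ± 35.7 and Cck at 146.3 ± 28.2 CPM per kb, whose ranges overlapped. Gad1 (41.8 ± 12.8), Pvalb (40.8 ± 14.6), Gad2 (39.9 ± 11.6) and Slc32a1 (31.3 ± 13.9 CPM per kb) followed, each overlapping the next, so that their order is within the spread. Vip (9.91 ± 2.97) and Cort (9.27 ± 3.63 CPM per kb) overlapped each other and lay below these, and Crh was lowest at 4.35 ± 0.863 CPM per kb, with a range that met that of Vip but not that of Cort. In BMAL1 aKO cortex Sst at 419.7 ± 71.1 CPM per kb came first, Npy (224.4 ± 28.5) and Cck (207.7 ± 43.0) next, then Pvalb, Gad1, Gad2 and Slc32a1 at 26.7 to 48.7, then Cort and Vip at 10.7 to 11.2, and Crh at 5.06 ± 0.804 CPM per kb. Pvalb came before Gad1, and Cort before Vip, in BMAL1 aKO cortex only, and both pairs overlapped in both groups.

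The comparison asked whether cortical interneuron genes change when astrocytes lose Bmal1. None of the 10 genes passed the threshold (limma on log2(CPM + 0.5) with sample quality weights, Benjamini-Hochberg adjusted p at or below 0.1 over all genes tested), beside 42 of 12573 genes, or 0.334%, called in the whole table. At an unadjusted p below 0.05 there were 3 of the 10 (Npy, Cck and Crh), beside 2117 of the 12573 genes. The fold changes leaned upward: 8 of the 10 were above 0 with a median log2 fold change of 0.22, beside 4828 of 12573 genes above 0 and a median of -0.04 over all genes. The groups overlapped for each of the 10 genes. Below, values of single libraries stand in the order of replicates 1 to 5, SE is the standard error of a log2 fold change, and fold changes are BMAL1 aKO against Cre-. Without sample quality weights 0 of the 10 were called, beside 4 of 12573 genes (0.0318%). Npy and Cck had an unadjusted p below 0.05 in that fit, beside 602 of the 12573 genes.

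**Figure D1:**
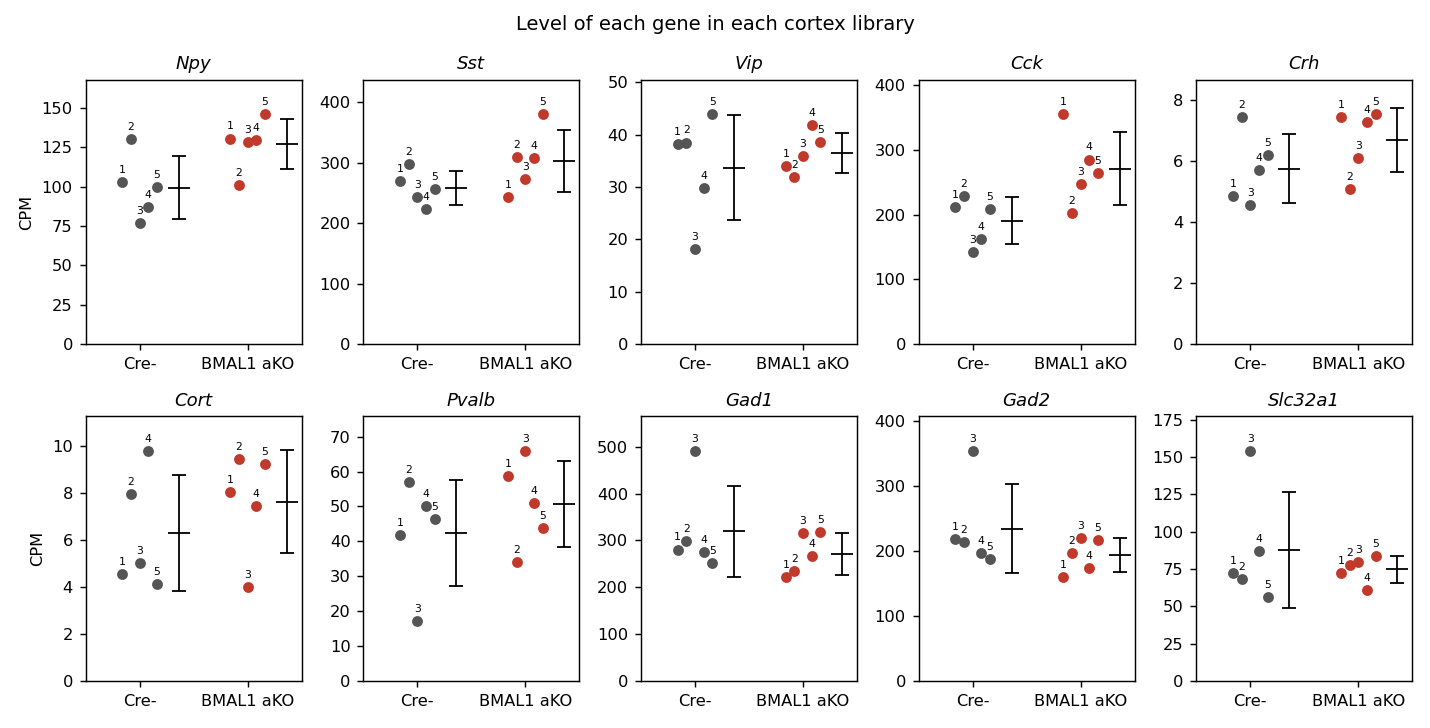
Level of each of the 10 genes in each library, in CPM on a vertical axis that starts at 0, for Cre- (grey) and BMAL1 aKO (red), with replicate numbers above the points. The bars beside the points are the mean and SD of 5 libraries; the groups overlap in all 10 panels, and Cre- replicate 3 is the highest library for Gad1, Gad2 and Slc32a1 and the lowest for Npy, Vip, Cck, Crh and Pvalb.

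Npy (ENSMUSG00000029819, chr6:49822710-49829507, plus strand) encodes a peptide that dampens transmitter release. Its Cre- libraries held 102.9, 130.2, 76.6, 87.3 and 99.9 CPM, and its BMAL1 aKO libraries 130.5, 101.2, 128.0, 129.5 and 145.9 CPM. All 5 BMAL1 aKO libraries lay above the Cre- median, and 2 of them above the highest Cre- library, replicate 2. The means were 99.4 ± 20.2 and 127.0 ± 16.1 CPM (SD, n = 5), and the log2 fold change came to 0.32 (SE 0.09, 95% interval 0.14 to 0.51, adjusted p = 0.169, limma). The two-sided exact permutation test over 252 splits, where the smallest possible p is 0.00794, gave p = 0.0714.

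Sst (ENSMUSG00000004366, chr16:23889573-23890958, minus strand), the defining peptide of dendrite-targeting interneurons, was the most abundant of the 10 per length. The Cre- libraries held 270.2, 298.2, 242.5, 223.7 and 256.6 CPM of it, and the BMAL1 aKO libraries 242.7, 309.5, 273.3, 307.6 and 380.1 CPM. BMAL1 aKO replicate 5 was highest, and BMAL1 aKO replicates 1 and 3 lay within the Cre- range. The log2 fold change was 0.19 (SE 0.09, 95% interval -0.01 to 0.39, adjusted p = 0.318, limma), and the exact permutation test gave p = 0.127. Cort (ENSMUSG00000028971, chr4:149125034-149126763, minus strand), a relative of Sst whose peptide acts on the same receptors, was found at 4.56, 7.92, 5.01, 9.77 and 4.13 CPM in the Cre- libraries and 8.03, 9.41, 3.99, 7.44 and 9.21 CPM in the BMAL1 aKO libraries. Both groups spanned nearly the same range, with BMAL1 aKO replicate 3 the lowest library of all and Cre- replicate 4 the highest. Its log2 fold change of 0.46 was the greatest of the 10 and also the least precise (SE 0.22, adjusted p = 0.303, limma; p = 0.452, exact permutation test).

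Cck (ENSMUSG00000032532, chr9:121489824-121495694, minus strand) encodes a peptide of basket cells and pyramidal cells, and it had the smallest exact p of the 10 genes. Its Cre- libraries held 211.2, 229.4, 141.7, 162.9 and 209.1 CPM, and its BMAL1 aKO libraries 355.1, 202.1, 247.9, 285.2 and 264.9 CPM. In BMAL1 aKO, 4 of 5 libraries lay above every Cre- library, and replicate 2 lay within the Cre- range. The means were 190.9 ± 36.9 and 271.0 ± 56.1 CPM (SD, n = 5), and the log2 fold change came to 0.34 (SE 0.10, 95% interval 0.12 to 0.57, adjusted p = 0.183, limma). The exact permutation test on the single gene gave p = 0.0317, not adjusted for the 10 genes looked at. Without sample quality weights the log2 fold change of Cck was 0.50 (SE 0.17), the greatest of the 10 in that fit.

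Vip (ENSMUSG00000019772, chr10:5639218-5647617, plus strand), the peptide of interneurons that inhibit other interneurons, was found at 38.3, 38.5, 18.1, 29.8 and 43.9 CPM in the Cre- libraries and 34.0, 32.0, 36.0, 41.9 and 38.6 CPM in the BMAL1 aKO libraries. All 5 BMAL1 aKO libraries fell inside the Cre- range, whose low end was replicate 3. The log2 fold change was -0.04 (95% interval -0.27 to 0.19, adjusted p = 0.86, limma). It was 0.17 without sample quality weights, where Cre- replicate 3 counts as much as the others, and -0.04 when that library was left out of the unweighted fit. Crh (ENSMUSG00000049796, chr3:19693401-19695396, minus strand), the peptide of the stress axis that a small set of cortical interneurons also makes, was found at 4.85, 7.42, 4.56, 5.7 and 6.18 CPM in the Cre- libraries and 7.42, 5.08, 6.1, 7.26 and 7.52 CPM in the BMAL1 aKO libraries. Its values overlapped over nearly the whole range, and the log2 fold change was 0.33 (SE 0.13, adjusted p = 0.225, limma; p = 0.183, exact permutation test). Pvalb (ENSMUSG00000005716, chr15:78191114-78206400, minus strand), which buffers calcium in fast-spiking cells, was found at 41.9, 56.9, 17.1, 50.1 and 46.3 CPM in the Cre- libraries and 58.6, 34.0, 65.9, 51.1 and 43.8 CPM in the BMAL1 aKO libraries. It varied most within groups, with a pooled SD of 0.547 on the log2 scale, above that of 95.9% of genes, and its log2 fold change was 0.25 (SE 0.16, adjusted p = 0.42, limma).

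For the genes of GABA synthesis and loading the estimates lay close to 0, and none passed the threshold. Gad1 (ENSMUSG00000070880, chr2:70553072-70602014, plus strand) was found at 280.5, 299.2, 491.0, 275.0 and 251.4 CPM in the Cre- libraries and 221.2, 234.5, 315.1, 267.2 and 318.7 CPM in the BMAL1 aKO libraries. Gad2 (ENSMUSG00000026787, chr2:22622205-22693874, plus strand) was found at 218.9, 214.4, 354.5, 197.2 and 187.3 CPM in the Cre- libraries and 160.6, 196.4, 220.3, 173.7 and 216.8 CPM in the BMAL1 aKO libraries. Slc32a1 (ENSMUSG00000037771, chr2:158610767-158615748, plus strand) was found at 72.2, 68.4, 154.0, 86.9 and 56.0 CPM in the Cre- libraries and 72.0, 77.5, 79.7, 60.6 and 83.5 CPM in the BMAL1 aKO libraries. For all 3 genes Cre- replicate 3 was far above every other library, and the remaining libraries of the groups were mixed. The log2 fold changes were 0.00 for Gad1 (95% interval -0.22 to 0.22, adjusted p = 0.992), -0.12 for Gad2 (-0.33 to 0.09, adjusted p = 0.527) and 0.07 for Slc32a1 (-0.19 to 0.34, adjusted p = 0.786, limma). Without weights all 3 estimates were below 0 (-0.21, -0.25 and -0.14), and without Cre- replicate 3 in the unweighted fit they were -0.04, -0.09 and 0.08. The ratio of Gad1 to Gad2 varied little, at 1.36 ± 0.0489 in Cre- and 1.4 ± 0.13 in BMAL1 aKO libraries (SD, n = 5). Gad1 overlaps the antisense gene Gad1os, and Slc32a1 the antisense gene Gm14205, and the library kit does not mark strand, so reads of each pair cannot be told apart.

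Relative to summed Gad1, Gad2 and Slc32a1 in the same library, the 6 peptide genes and Pvalb all averaged higher in BMAL1 aKO cortex. Sst, Cck and Vip are given here, and Cre- replicate 3 stood apart again. Sst (0.721 kb of exon) and Cck (1.305 kb) are shorter than Gad1, Gad2 and Slc32a1 (2.797 to 7.639 kb). The part of exon length in these ratios was not tested. Sst was 47.3, 51.2, 24.3, 40.0 and 51.9% of that sum in the Cre- libraries and 53.5, 60.9, 44.4, 61.3 and 61.4% in the BMAL1 aKO libraries. Cck was 37.0, 39.4, 14.2, 29.1 and 42.3% of it in the Cre- libraries and 78.2, 39.7, 40.3, 56.9 and 42.8% in the BMAL1 aKO libraries. In both, replicate 3 was the lowest Cre- library by far, and the groups overlapped. Vip was 6.69, 6.61, 1.81, 5.34 and 8.88% of that sum in the Cre- libraries. In the BMAL1 aKO libraries Vip was 7.49, 6.29, 5.85, 8.35 and 6.24% of it. The higher BMAL1 aKO mean of Vip (6.84 against 5.87%) rested on Cre- replicate 3. The summed CPM of the 6 peptide genes was 488.5 to 711.7 in Cre- and 659.2 to 846.2 in BMAL1 aKO libraries, with Cre- replicate 2 inside the BMAL1 aKO range. No test was made of these sums.

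The calls turned on single BMAL1 aKO libraries. Without BMAL1 aKO replicate 3, Npy (log2 fold change 0.34, adjusted p = 0.0877), Cck (0.39, adjusted p = 0.0904) and Cort (0.74, adjusted p = 0.0616, limma) passed the threshold. The whole table then held 844 called genes of 12572, or 6.71%. Without BMAL1 aKO replicate 2, which had the lowest Npy, Vip, Cck, Crh and Pvalb of its group, Npy passed (0.39, adjusted p = 0.0808, limma), beside 52 of 12573 genes (0.414%). With any 1 of the other 8 libraries left out, 0 of the 10 genes passed. The estimate for Crh was 0.10 (unadjusted p = 0.514) without Cre- replicate 1, the library with the greatest weight, and 0.21 without sample quality weights. The estimate for Cort was 0.23 without Cre- replicate 5, 0.28 without weights and 0.15 with the Xist level as a covariate. Sst was at 0.08 without BMAL1 aKO replicate 5, while Npy ran from 0.26 to 0.39 and Cck from 0.30 to 0.43 with 1 library left out. In the exact permutation test, leaving out BMAL1 aKO replicate 3 gave p = 0.0794 for Npy, 0.0556 for Cck and 0.135 for Cort.

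**Figure D2:**
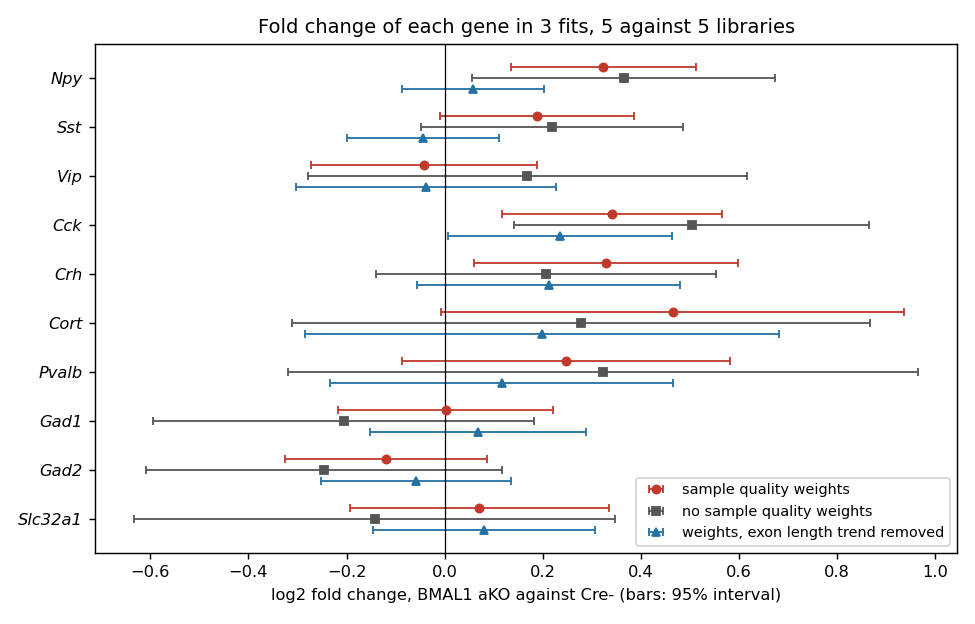
Log2 fold change of each gene, BMAL1 aKO against Cre-, with 95% intervals from limma in 3 fits of 5 against 5 libraries: with sample quality weights (red circles), without them (grey squares), and with weights after the exon length trend was removed (blue triangles). Npy moves from 0.32 to 0.06 and Sst from 0.19 to -0.04 when the trend is removed, while Cck stays above 0 in all 3 fits.

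The fold changes of the 10 genes ran with their summed exon length, and so did those of all genes. Npy (0.566 kb of exon), Cort (0.677 kb) and Sst (0.721 kb) are among 308 tested genes of at most 1 kb, of which 79.9% had a log2 fold change above 0, with a median of 0.27. Pvalb (1.041 kb), Cck (1.305 kb) and Crh (1.32 kb) are among 1087 genes of 1 to 2 kb with a median of 0.08. Slc32a1 (2.797 kb) and Vip (3.402 kb) are among 3536 genes of 2 to 4 kb with a median of -0.01. Gad2 (5.876 kb) and Gad1 (7.639 kb) are among 5038 genes of 4 to 8 kb with a median of -0.06, and the 2557 longer genes had a median of -0.09. Within its own class Npy exceeded 60.1% of genes and Sst 39.9%, both near the middle, while Cck exceeded 89.1%, Crh 88.2%, Pvalb 79.8% and Cort 74.4%. Gad1, Gad2, Slc32a1 and Vip exceeded 68.3, 31.6, 70.1 and 41.2% of theirs. Without sample quality weights several of these standings turned round, with Gad1 at 19.9%, Gad2 at 13.7%, Slc32a1 at 27.2%, Vip at 87.7% and Cort at 43.5%, while Npy (54.5%), Sst (37.7%), Cck (95.7%), Crh (74.7%) and Pvalb (87.7%) stayed on the same side of the middle.

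The short-transcript level of a library was taken as the median log2 deviation of genes of at most 1 kb minus that of genes over 4 kb, each deviation being from the gene's mean over the 10 libraries. It was -0.11, 0.26, -0.54, -0.52 and -0.09 in Cre- and 0.16, -0.04, 0.05, 0.38 and 0.36 in BMAL1 aKO replicates 1 to 5. The 5 libraries with the lowest short-transcript level were also the 5 with the lowest Npy, and they included BMAL1 aKO replicate 2 and did not include Cre- replicate 2. Over the 10 libraries Npy followed this level with Pearson's r = 0.947 (adjusted permutation p = 0.0027) and Spearman's rho = 0.879 (adjusted permutation p = 0.0225), and r was 0.885 without the 2 libraries farthest from the median. Taken as deviations from the group means, so that the difference between groups plays no part, r was 0.913 for Npy. For Cck, r was 0.852 (adjusted permutation p = 0.0159) and rho 0.855 (0.0317), with r = 0.604 without the 2 farthest libraries. For Crh, r was 0.802 (0.0271) and rho 0.83 (0.0339), with r = 0.857 without them. Sst had r = 0.749 (adjusted permutation p = 0.0399) and rho = 0.733 (0.101), and r fell to 0.586 without those libraries. Vip, a longer gene with 3.402 kb of exon, had r = 0.723 (adjusted permutation p = 0.0399) and rho = 0.624 (0.182). For Vip r fell to 0.182 without the 2 farthest libraries. The p-values are adjusted over 30 relations, those of the 10 genes to 3 measures of the libraries, and both sides of each relation come from the same libraries.

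The trend of the level on exon length was then removed from each library, an alternative chosen after seeing the data. Of the 10 genes 0 were called, beside 28 of 12526 genes (0.224%), and the median log2 fold change of the 10 was 0.08. Npy was at 0.06 (95% interval -0.09 to 0.20, adjusted p = 0.775) and Sst at -0.04 (-0.20 to 0.11, adjusted p = 0.843, limma). Cck was at 0.23 (0.01 to 0.46, unadjusted p = 0.0442, adjusted p = 0.417), Crh at 0.21 and Cort at 0.20, none past the threshold. With the trend removed and BMAL1 aKO replicate 3 left out, 153 of 12526 genes (1.22%) were called and 0 of the 10, where Npy was at 0.00, Cck at 0.25 and Cort at 0.45. What made the short-transcript level differ between libraries was not tested.

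**Figure D3:**
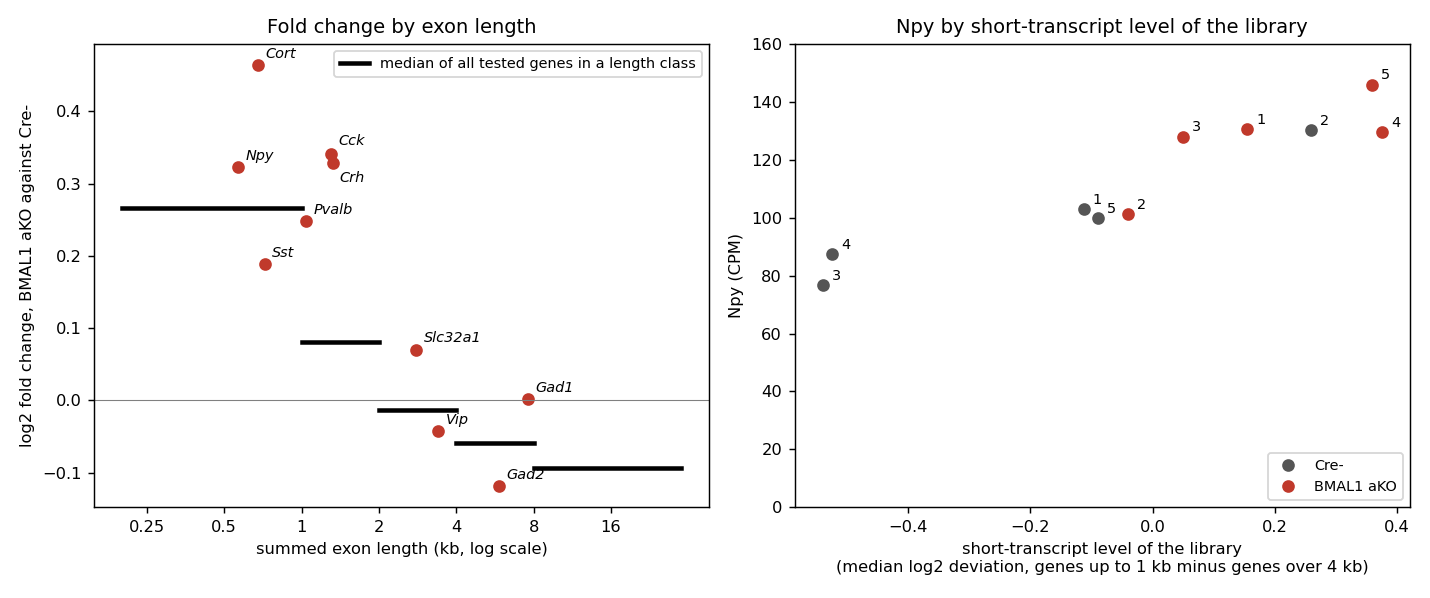
Left, log2 fold change of the 10 genes (points, BMAL1 aKO against Cre-) by summed exon length in kb on a log scale, with bars at the median of all tested genes in each length class. Right, Npy in CPM on an axis that starts at 0 by the short-transcript level of each library (log2), Cre- in grey and BMAL1 aKO in red with replicate numbers; Npy is lowest in Cre- replicates 3 and 4, the libraries with the lowest short-transcript level.

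Slc32a1 and Vip were the 2 genes whose Pearson correlation with the striatal level of the libraries passed adjustment, in opposite directions, and those of Gad1 and Gad2 did not pass. Striatal projection neurons, which lie beneath the cortex, also use GABA and carry Gad1, Gad2 and Slc32a1. The 11 tested striatal markers summed to 904.3, 661.9, 1830, 776.7 and 384.9 CPM in the Cre- libraries and to 913.1, 684.6, 942.6, 484.6 and 566.7 CPM in the BMAL1 aKO libraries, so that every library held RNA of these genes, some of which cortical neurons also use at a low level. The 12 excitatory cortical neuron markers summed to 3797 to 5757 CPM in Cre- and 3959 to 5249 CPM in BMAL1 aKO libraries. Summed Gad1, Gad2 and Slc32a1 was 999.4 CPM in Cre- replicate 3, the library with the highest striatal sum, and 453.9 to 619.0 CPM in the other 9. Slc32a1 followed the mean striatal level with r = 0.864 (adjusted permutation p = 0.0203) and rho = 0.6 (0.205), and with r = 0.356 without the 2 libraries farthest from the median, so that the relation rests on those libraries. Vip ran the other way, with r = -0.867 (adjusted permutation p = 0.0155) and rho = -0.818 (0.0339), and r = -0.509 without the 2 farthest libraries. For Gad2 r was 0.694 (adjusted permutation p = 0.126) and for Gad1 0.63 (0.161), and without Cre- replicate 3 these were 0.166 and 0.031. With the striatal level as a covariate in a fit without sample quality weights, the log2 fold changes were -0.15 for Gad1 (SE 0.14), -0.19 for Gad2 (SE 0.13), -0.05 for Slc32a1 (SE 0.13) and 0.09 for Vip (SE 0.12), nearer to 0 than without the covariate. The same fit with weights did not converge.

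**Figure D4:**
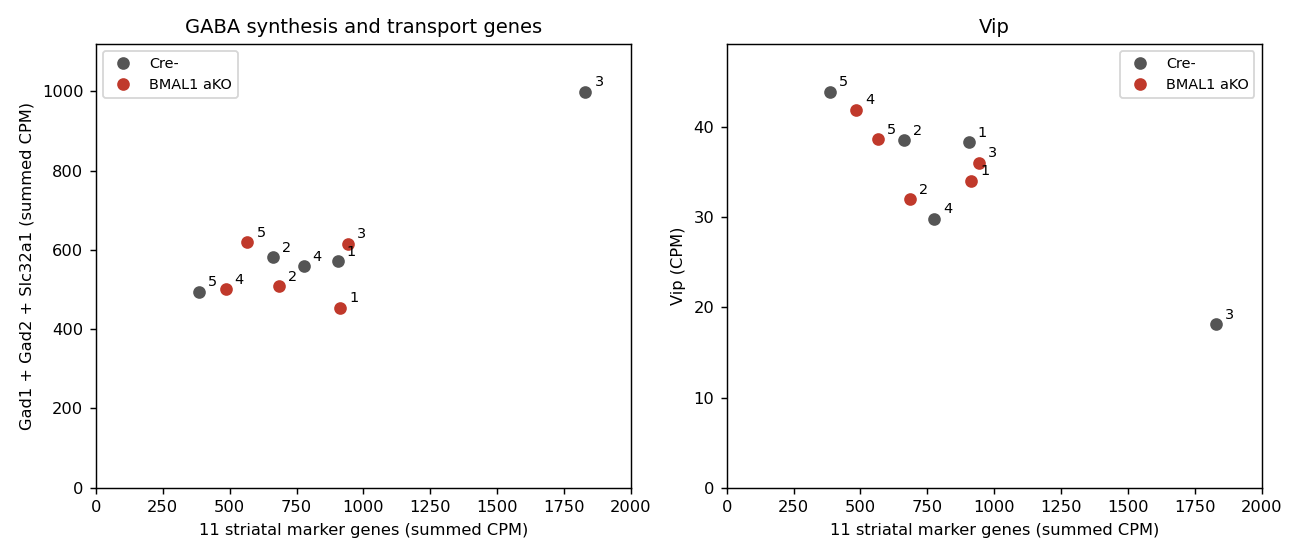
Summed Gad1, Gad2 and Slc32a1 (left) and Vip (right), in CPM, by the summed CPM of 11 striatal marker genes in each library, Cre- in grey and BMAL1 aKO in red with replicate numbers and both axes from 0. Cre- replicate 3, at 1830 CPM of striatal markers, has the highest GABA gene sum (999.4 CPM) and the lowest Vip (18.1 CPM).

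Some pairs of the 10 genes varied together between mice. Of 45 pairs, 11 had an adjusted permutation p at or below 0.1 for Pearson's r, and 3 of these also for Spearman's rho. Gad1 and Gad2 had r = 0.949 (adjusted permutation p = 0.0072) and rho = 0.891 (0.0225), with r = 0.681 without the 2 libraries farthest from the median of Gad1. Npy and Cck had r = 0.887 (0.0072) and rho = 0.903 (0.0225), with r = 0.71 without the 2 farthest libraries. Npy and Crh had r = 0.851 (adjusted permutation p = 0.0339) and rho = 0.855 (0.0433), with r = 0.839 without them. After the exon length trend was removed, r was 0.94 for Gad1 with Gad2, 0.376 for Npy with Cck and 0.45 for Npy with Crh. Pairs that passed for Pearson's r only went both ways. Cck with Crh hardly moved (r = 0.784 before and 0.74 after), nor did Crh with Pvalb (0.694 and 0.693). Npy with Vip fell from 0.695 to 0.035. Vip and Slc32a1 ran in opposite directions, with r = -0.95 (adjusted permutation p = 0.0072) and rho = -0.758 (0.135), and with r = -0.787 without Cre- replicate 3. Npy and Sst, which share many cells in the cortex, had r = 0.658 (adjusted permutation p = 0.113) and rho = 0.6 (0.363).

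The genes whose pattern over the 10 libraries was most like each member were mostly not interneuron genes. Those nearest Npy by Pearson's r were Rpl28-ps1 (0.969), Mrfap1 (0.967) and Fdx1 (0.965), with 0.414, 1.648 and 3.104 kb of exon. Those nearest Cck were Gm5963 (0.971), Gm15427 (0.971) and Clta (0.969), with 0.236 to 1.8 kb of exon, and those nearest Sst were Sdf2 (0.970), Rps21 (0.944) and Rtl8b (0.941), with 0.81 to 1.515 kb. Gad1 was nearest Gad2 (0.949), then Ube4b (0.948) and Lrba (0.912), and Gad2 was nearest Lrba (0.963), Gad1 (0.949) and Slco5a1 (0.948). Slc32a1 was nearest Gpr83 (0.984), Lingo3 (0.974) and Kcnd1 (0.972), Vip 9130024F11Rik (0.982), Map4k3 (0.982) and Gtdc1 (0.981), and Pvalb Jph1 (0.969), Gm26673 (0.954) and Abcd2 (0.944). Crh was nearest Pgbd1 (0.943), Bloc1s4 (0.922) and Chmp5 (0.920), and Cort Atf4 (0.907), Ppm1m (0.898) and Kif27 (0.893). These are the highest of 12573 genes over 10 libraries and are given without a test.

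None of the receptors that bind these peptides passed the threshold. Of the receptors and the CRH binding protein, 12 of 15 listed genes were tested, and 9 had a fold change below 0 with a median log2 fold change of -0.11, beside 7745 of all 12573 genes below 0 and a median of -0.04. Npy1r, a main neuropeptide Y receptor of cortical neurons, was at 23.4 to 37.7 CPM in Cre- and 21.5 to 28.2 CPM in BMAL1 aKO libraries (log2 fold change -0.38, SE 0.09, adjusted p = 0.124, limma; p = 0.0556, exact permutation test). Sstr4 and Sstr1, somatostatin and cortistatin receptors, were at -0.47 and -0.45, and Cckbr, the main cholecystokinin receptor of the brain, at -0.27, with adjusted p-values of 0.182 for Sstr4 and Cckbr. Peptide processing and dense-core vesicle genes had 0 of 14 called and a median of -0.08. Pcsk1, the convertase that cuts peptide precursors, was at -0.48 (adjusted p = 0.134, limma), and Pcsk1n, which encodes an inhibitor of that enzyme, at 0.56 (adjusted p = 0.183, limma). Pcsk1n was at 113.6 to 207.0 CPM in Cre- and 214.6 to 562.0 CPM in BMAL1 aKO libraries. Its adjusted p was 0.803 without sample quality weights (limma). How many of all genes separate the groups in this way was not counted. Ptprn2 (-0.32), a vesicle membrane protein gene, and Cadps (-0.15), which primes these vesicles, were the other genes of that list with the smallest p.

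Other lists of the same cells and pathway held few differences. Of other cortical neuropeptide genes 0 of 12 tested were called, with a median log2 fold change of -0.01. Cartpt, the gene of another neuropeptide precursor, was at 0.65 (adjusted p = 0.176, limma), with Cbln2 at -0.20, Pdyn at -0.23 and Tac2 at 0.14. Of other interneuron markers 0 of 15 were called and 10 were below 0, beside 7745 of all 12573 genes below 0. Their median log2 fold change was -0.18, beside -0.04 over all genes. Smallest in p were Htr3a, the ion channel of a class that includes Vip cells, and Cnr1, the cannabinoid receptor of Cck basket cells. Syt2 and Kcnc1 of Pvalb cells came next. Of the transcription factors that set interneuron identity 0 of 15 were called, with Maf at 0.25 (adjusted p = 0.273, limma), and with Dlx1, Satb1 and Prox1 next. Of genes of GABA uptake, breakdown and glutamine supply 0 of 9 were called. Among these, Slc38a1, a glutamine transporter of neurons, was at -0.25 (adjusted p = 0.182, limma), with Slc38a2, Abat and Glul next. Of the perineuronal net genes, whose products wrap Pvalb cells, 0 of 7 were called, with Tnr, Ncan, Hapln1 and Vcan having the smallest p.

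Activity-induced genes, which neurons switch on after firing, were lower in sign in 11 of 12 with a median log2 fold change of -0.39, and 0 were called. Their sum was 1000 to 2311 CPM in Cre- and 743.3 to 1121 CPM in BMAL1 aKO libraries. Npy followed the mean of this list inversely, with r = -0.869 (adjusted permutation p = 0.00885) and rho = -0.891 (0.0225), and r = -0.853 without the 2 libraries farthest from the median. Sst (r = -0.792, adjusted permutation p = 0.0285; rho = -0.661, 0.15) and Cck (r = -0.738, 0.0473; rho = -0.673, 0.149) ran the same way, with r = -0.474 and -0.728 without those libraries. Whether the activity-induced level or the short-transcript level is the nearer companion of Npy was not tested. Among markers of other cell types, 1 of 10 astrocyte genes was called, Gja1 (a gap junction gene, log2 fold change 0.44, adjusted p = 0.0273, limma), and 0 of 8 each of oligodendrocyte, microglial and endothelial markers. Of a list of 6 astrocyte genes chosen with results of these samples known, 4 were called (Fabp7, Egfl6, Mmp14 and Cst3), which is no independent evidence. Of hypothalamic and pituitary genes, 2 of 9 were measured, and Prl (prolactin) was not called. Gh (growth hormone) was at 0.0828 to 5.2 CPM in Cre- and 2.29 to 8.65 CPM in BMAL1 aKO libraries. It was called with sample quality weights (adjusted p = 0.0297) and not without them (adjusted p = 0.803, limma; p = 0.0873, exact permutation test). Its lowest value was in Cre- replicate 1, the library with the greatest weight. The markers of hypothalamic peptide neurons on that list (Avp, Oxt, Pomc, Hcrt, Pmch, Agrp, Trh) were absent from the 12575 genes of the deposited table. The part of such tissue in Crh was not tested.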

How the data were processed

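RNA of cerebral cortex from 10 mice was measured. The authors deposited CPM per gene and library, after alignment to GRCm38 with STAR 2.5.1a and counting with featureCounts 1.4.6-p5 from libraries of a low-input kit that does not mark strand. TMM scaling is named in the methods, but the deposited CPM summed to 99.12 to 99.27% of the unscaled total, so none was applied to them. The values were whole multiples of 1 read in each library (tolerance 0.01 read), which gave the depth. Exon lengths and positions came from GENCODE M21 (12528 genes with 1 match).

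Values were taken as log2(CPM + 0.5) for genes that exceeded 1 CPM in 4 or more libraries and fitted with limma 3.58.1 (R 4.3.3; sample quality weights, trended variances, Benjamini-Hochberg threshold 0.1), so fold changes of low genes are understated. Ribosomal genes, removed in the study's methods, were kept. Single genes had two-sided exact permutation tests and correlations 100000 permutations (Python 3.11.15, NumPy 2.4.6, SciPy 1.17.1, pandas 2.3.3; figures with matplotlib 3.10.9). The exon length trend was a lowess curve per library. The members and lists were chosen with earlier results of these data known. Named genes were the 10 members, genes past the threshold or up to 4 with the smallest p per list, and the 3 genes nearest each member. The labels number the libraries without naming animals, so p-values measure the spread between these libraries, which may be technical. Alternatives were other pseudocounts, filters, scalings, weights, covariates, a replicate block, voom on the recovered reads and each library left out. With no filter 12575 genes were tested, with the main filter 12573, and above 1 CPM in all 10 libraries 12541. The filters could thus change little.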

Additional observations from a re-analysis of the deposited data

Results flagged for a closer look

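Gad1 was at 491.0 CPM and Gad2 at 354.5 CPM in Cre- replicate 3, and each value lay farther from the other 4 Cre- libraries than the critical value of Dixon's test for 5 samples (0.71) allows. The other Cre- libraries were at 251.4 to 299.2 CPM for Gad1 and at 187.3 to 218.9 CPM for Gad2. Both flags fall in 1 library, the one with the highest striatal marker sum (1830 CPM) and the lowest sample quality weight (0.181). The 10 genes gave 20 groups to look at, and chance flags about 1 in 20 groups.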

How the results depend on the processing

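The count of genes past the threshold (42) was 4 without sample quality weights, 65 with quantile normalization, 68 with TMM scaling, 22 with the Xist level as a covariate, 20 at a threshold of 0.05 and 3936 with the striatal level as a covariate, where the weights did not converge. It was 4 in each of the unweighted fits chosen after seeing the data (without Cre- replicate 3, with the striatal level, with TMM scaling, with the exon length trend removed) and 153 with that trend removed and without BMAL1 aKO replicate 3. With 1 library left out it ran from 1 to 844: 1, 19, 15 and 5 without Cre- replicates 1, 3, 4 and 5, and 23, 844 and 10 without BMAL1 aKO replicates 1, 3 and 4. Weights did not converge without Cre- replicate 1 or 5 either. With a replicate block it was 7. The other alternatives stayed within 1.5 times of 42.

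Of the 10 genes, 3 passed with the striatal level as a covariate (Npy, Sst and Cck, adjusted p = 0.0132, 0.0309 and 0.0153, limma). In that fit the weights did not converge, and 3936 of all 12573 genes passed, a similar share. With 1 library left out 0 to 3 of the 10 passed, and 0 passed in all other fits. Cck, Crh and Gad2 kept their direction in all 30 alternatives, at 0.24 to 0.55, 0.10 to 0.41 and -0.25 to -0.03 on the log2 scale. Directions reversed as follows. Sst was at -0.044 with the exon length trend removed, -0.052 with it removed and no weights, and -0.017 with it removed and no BMAL1 aKO replicate 3. In that last setting Npy was at -0.001, Pvalb at -0.083 and Vip at 0.011. Without weights Vip was at 0.17, Gad1 at -0.21 and Slc32a1 at -0.14, and with the striatal level as a covariate they were at 0.136, -0.071 and -0.051. Without weights and with the striatal level they were at 0.085, -0.154 and -0.051, with TMM scaling at 0.218, -0.155 and -0.092, and with the length trend removed at 0.213, -0.127 and -0.112, where Cort was at -0.011. Gad1 was at -0.04 without weights and Cre- replicate 3. With 1 library left out Vip ran from -0.104 to 0.105, Gad1 from -0.066 to 0.049 and Slc32a1 from -0.086 to 0.165. The causes were not tested.

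With the replicate block 0 of the 10 genes were among the 7 that passed. Same-numbered libraries had r = -0.625 to 0.364 over 5 pairs and 1 of 5 matched its own number best, so the numbers were not taken to pair the mice. The planned edgeR and DESeq2 fits were not run, and the recovered reads were fitted with voom (29 genes) in their place. Depth did not limit these genes, at 148 or more reads behind each value.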
